A study of Mus musculus with 12 samples.

Results

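The leukotriene and lipid mediator genes were 10 named lipoxygenase, leukotriene and phospholipase A2 genes. The phospholipases were Pla2g4a, Pla2g15 and Pla2g7, the lipoxygenases Alox5 and Alox15, and the 5-lipoxygenase-activating protein Alox5ap. The leukotriene-forming enzymes were Lta4h and Ltc4s, and the receptors Ltb4r1 and Cysltr1. All 10 were chosen by symbol and found among the 12850 genes of the expression table. The table holds RNA-seq of thioglycollate-elicited peritoneal exudate cells (PECs), which are mostly macrophages drawn into the peritoneum, from C57BL/6 mice. The mice were WT or carried the Zc3h12a S513A/S513A knock-in, made by genome editing. It replaces by alanine a serine of Regnase-1 whose phosphorylation is needed for binding to 14-3-3 proteins. Cells of each genotype were left without LPS (0 hr) or stimulated with LPS at 100 ng/ml for 4 or 8 hr, with 2 libraries in each of the 6 groups, 12 in all. No source used here says whether the 2 libraries of a group came from separate mice, so the p-values measure the spread between these libraries, which may be technical.

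Cytosolic phospholipase A2 (Pla2g4a) frees arachidonic acid from membrane phospholipids. The enzyme 5-lipoxygenase, presented with its substrate by 5-lipoxygenase-activating protein, turns this acid into leukotriene A4. Leukotriene A4 hydrolase then makes leukotriene B4, a chemoattractant of neutrophils, and leukotriene C4 synthase makes the cysteinyl leukotrienes, which contract smooth muscle and open vessels to plasma. Macrophages hold the whole pathway and release its products within minutes of a stimulus, from enzymes already present.

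The libraries held between 9525979 and 12439960 reads on the listed genes. The SD of the log2 difference between the 2 libraries of a group, over 8353 genes, was 0.22 in WT at 0 hr, 0.40 in WT at 4 hr and 0.16 in WT at 8 hr, and 0.16, 0.29 and 0.34 in S513A, so the WT pair at 4 hr differed most. The 7 macrophage markers were all present, with a summed level of 16650 to 27790 CPM (reads scaled to library size) in every library. Of the other cell types, 3 of 10 neutrophil markers were in the table (Ly6g and S100a9 not analysed here), and they summed to 103 to 123 CPM before LPS, 139 to 183 CPM after 4 hr and 162 to 215 CPM after 8 hr. For eosinophils, 3 of 8 markers were in the table (Epx and Prg2 not analysed here), and they summed to 16.0 to 18.8 CPM before LPS, 8.31 to 10.4 CPM after 4 hr and 3.84 to 4.91 CPM after 8 hr. Siglecf made up most of that sum, and Ear2 and Ccr3 held 0 to 8 reads per library. These few reads went opposite ways: from 0 to 8 hr the mean log2 CPM of Ear2 went from -0.889 to -2.52 and that of Ccr3 from -2.89 to -1.54. The 4 of 7 mast cell markers in the table summed to 1.76 to 3.84 CPM in every library.

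Upstream sequences are shown for the 3 members with the largest falls at 8 hr and the 1 with the largest rise, so that both directions can be seen. RefSeq (GRCm38.p6, the build of mm10) gave a start site for 7 of the 10 members, and the 250 bases before the start of Alox5, Pla2g15, Ltb4r1 and Pla2g4a (the outermost of its 2 starts) are printed 5′ to 3′ on the strand of the gene, with a GC box in capitals (in Ltb4r1 it is on the other strand, so its complement CCGCCC is capitalised).
Alox5 promoter, chr6:116461179-116461428, - strand: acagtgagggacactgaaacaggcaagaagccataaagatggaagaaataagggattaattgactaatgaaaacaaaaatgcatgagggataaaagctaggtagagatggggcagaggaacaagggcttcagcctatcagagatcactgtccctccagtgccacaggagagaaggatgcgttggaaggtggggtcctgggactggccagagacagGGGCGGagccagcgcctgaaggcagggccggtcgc
Pla2g15 promoter, chr8:106150104-106150353, + strand: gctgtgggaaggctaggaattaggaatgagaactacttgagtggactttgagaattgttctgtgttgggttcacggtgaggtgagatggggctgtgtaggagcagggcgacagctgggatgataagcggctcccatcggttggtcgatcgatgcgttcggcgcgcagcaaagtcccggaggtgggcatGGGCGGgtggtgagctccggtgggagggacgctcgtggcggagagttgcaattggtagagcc
Ltb4r1 promoter, chr14:55765712-55765961, + strand: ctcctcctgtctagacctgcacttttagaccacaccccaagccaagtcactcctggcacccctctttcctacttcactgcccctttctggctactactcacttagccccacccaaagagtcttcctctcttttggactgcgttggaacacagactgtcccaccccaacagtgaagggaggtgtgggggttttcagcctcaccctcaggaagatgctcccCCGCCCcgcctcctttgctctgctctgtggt
Pla2g4a promoter, chr1:149961291-149961540, - strand: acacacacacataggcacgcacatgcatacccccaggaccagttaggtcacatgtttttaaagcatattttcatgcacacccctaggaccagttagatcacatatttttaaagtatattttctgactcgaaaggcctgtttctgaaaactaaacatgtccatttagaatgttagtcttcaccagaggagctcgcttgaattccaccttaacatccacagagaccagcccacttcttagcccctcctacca

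The windows were searched on both strands for the GC box GGGCGG, the TATA box TATAAA, the E-box CACGTG, the AP-1 site TGANTCA, the ETS core GGAAGT and the NF-kB site, by its consensus. Alox5, Pla2g15 and Ltb4r1, which fell, and Pla2g7, which rose, held a GC box, with its first base 35, 62, 31 and 13 bases before the start, and 32.7% of all 32851 windows of this length held one. No window of the 7 members held the AP-1 site, the E-box or the NF-kB site, against 6.75%, 6.02% and 7.25% of all windows. The ETS core was found in Ltc4s and before the inner start of Pla2g4a, which also held the TATA box, against 19.7% and 12.4% of all windows. The outermost start of Pla2g4a held none of these letters, and the windows of the members printed above were 43.2% to 58.8% G or C, beside a median of 52.4% over all windows.

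To compare the genes with each other, levels were expressed as CPM per kb of exon, with n = 4 libraries at each time point. Pla2g7 had the highest level of the 10 at every time point, with 440 ± 83.1 CPM per kb (SD, n = 4) at 0 hr, and Alox5ap followed with 288 ± 33.9 (SD, n = 4). The level of Pla2g15 was 44.3 ± 3.12 (SD, n = 4) and that of Lta4h 17.0 ± 1.12 (SD, n = 4) CPM per kb at 0 hr. These 4 genes did not overlap between libraries at that time, and their order there was the same whether the exons or the longest transcript gave the length. Alox5 itself stood far below its activating protein, at 3.25 ± 0.821 CPM per kb (SD, n = 4) at 0 hr. The lowest levels at 0 hr were those of Ltb4r1, 1.94 ± 0.849 (SD, n = 4), and Alox15, 1.07 ± 0.398 (SD, n = 4). Neighbours overlapped there: the libraries of Ltc4s (5.24 to 5.74) with those of Pla2g4a (4.55 to 5.50), those of Alox5 (2.13 to 4.10) with those of Cysltr1 (2.50 to 2.92) and Ltb4r1 (1.23 to 3.17), and those of Ltb4r1 with those of Alox15 (0.626 to 1.58).

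By 8 hr the order had changed in its middle and at its foot. Pla2g4a stood at 13.5 ± 1.18 CPM per kb (SD, n = 4), and its libraries (12.5 to 14.7) overlapped those of Pla2g15 (13.3 to 15.2). Cysltr1, at 4.34 ± 0.278 (SD, n = 4), stood above Ltc4s, at 2.04 ± 0.625 (SD, n = 4), and above Alox5, at 0.767 ± 0.286 (SD, n = 4). Ltb4r1 was then the lowest, at 0.439 ± 0.173 (SD, n = 4), with libraries that overlapped those of Alox15 (0.375 to 0.680), which in turn overlapped those of Alox5 (0.593 to 1.19). With the longest transcript as the length, Pla2g4a stood at 9.17 CPM per kb at 0 hr and 24.9 at 8 hr, above Ltc4s (7.73) at 0 hr and above Pla2g15 (16.0) at 8 hr.

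**Figure D1:**
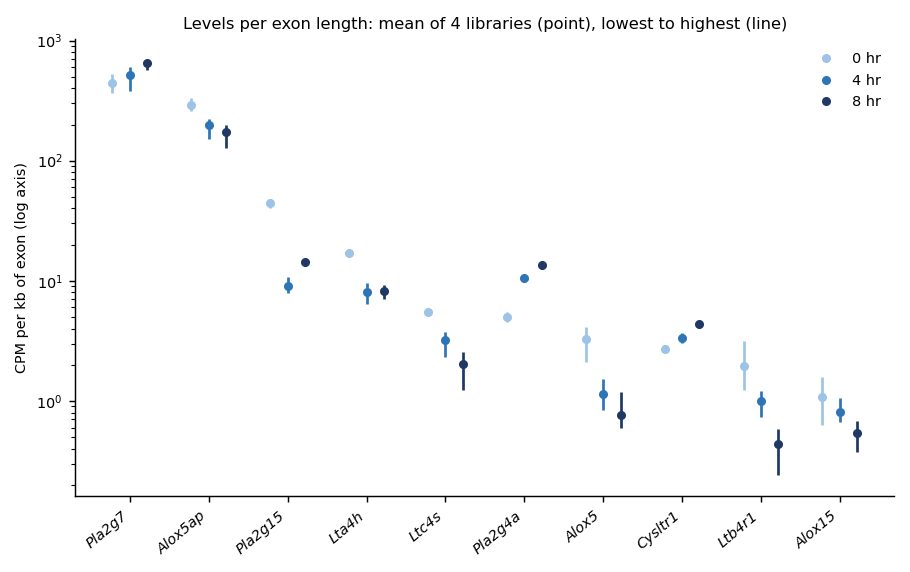
CPM per kb of exon (log axis) of the 10 genes at 0, 4 and 8 hr of LPS; points are means over 4 libraries, both genotypes together, and lines run from the lowest to the highest library. Pla2g7 and Alox5ap sit highest throughout, Pla2g4a climbs from 4.95 to 13.5, and Ltb4r1 falls from 1.94 to 0.439.

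How the 10 genes changed under LPS was addressed with the mean response of both genotypes. The 12 libraries include none without LPS at 4 or 8 hr. The effect of LPS and that of time in culture therefore cannot be told apart, here and below. At 4 hr against 0 hr, 5 of the 10 members fell (Alox5, Alox5ap, Lta4h, Ltc4s and Pla2g15), 2 rose (Pla2g4a and Cysltr1) and 3 did not pass the test (limma across all 11885 genes tested, Benjamini-Hochberg adjusted p of 0.05). Over all genes 26.7% fell and 29.1% rose in that comparison, and the median log2 fold change was -0.66 over the members and 0.02 over all genes. At 8 hr against 0 hr all 10 passed: 7 fell and 3 rose, where 21.6% of all genes fell and 24.5% rose. The members' median was -1.0 at 8 hr, beside 0.00 over all genes. The comparisons at 4 and 8 hr share the 0 hr libraries. Libraries of the times compared did not overlap for many genes: 25.7% lay wholly higher and 23.4% wholly lower at 4 hr against 0 hr. At 8 hr against 0 hr these shares were 23% and 20.7%, and at 8 hr against 4 hr 11.9% and 11.7%. Among the 10 members the counts were 2 and 6, 3 and 6, and 3 and 1, in the same order. In bulk RNA, fewer cells that express a gene and less RNA per cell cannot be told apart.

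**Figure D2:**
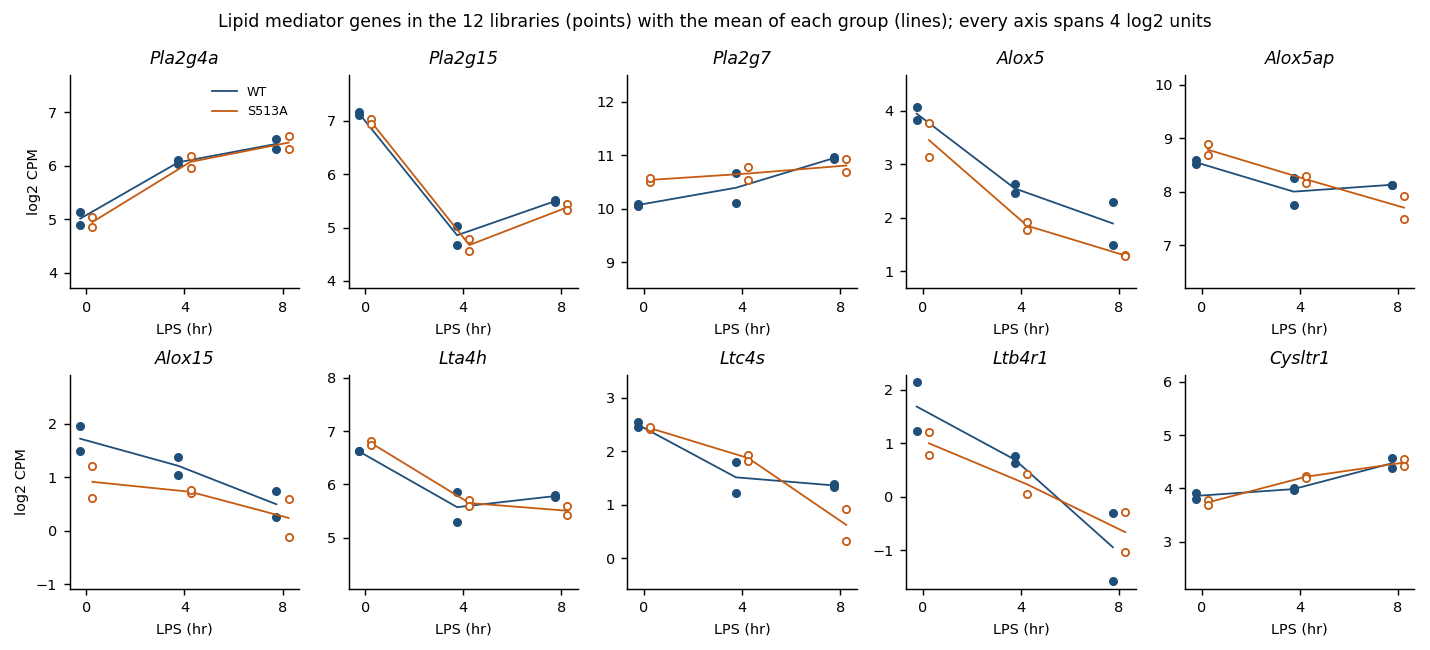
log2 CPM of each member against hours of LPS; filled blue points are the 2 WT libraries and open orange points the 2 S513A libraries of each time point, lines join the group means, and every axis spans 4 log2 units. Pla2g4a and Cysltr1 climb, and Pla2g15 drops at 4 hr and comes part of the way back. The group means of Alox5, Ltc4s and Ltb4r1 fall at each step, though not every step passed the test.

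Pla2g4a encodes the cytosolic phospholipase A2 that selects arachidonic acid and supplies most eicosanoid synthesis (chr1:149829618-149961290, minus strand). In WT the log2 CPM went from 5.14 and 4.89 (0 hr) to 6.10 and 6.03 (4 hr) and 6.31 and 6.51 (8 hr), and in S513A from 4.86 and 5.03 to 5.96 and 6.18 and then 6.32 and 6.55. The 12 values fell into 3 separate steps by time, with no overlap between time points and with the genotypes mixed within each step. Pla2g4a rose 2.13-fold at 4 hr (log2 1.09, SE 0.098, adjusted p = 3.77e-06) and 2.72-fold at 8 hr (log2 1.44, SE 0.098, adjusted p = 5.06e-07). It was the only phospholipase of the 3 listed that passed the test upward at both time points.

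Pla2g15, the phospholipase A2 of lysosomes (chr8:106150399-106164715, plus strand), moved the other way. Its log2 CPM was 7.11 and 7.16 in WT at 0 hr, 4.68 and 5.03 at 4 hr, then 5.52 and 5.47 at 8 hr, and in S513A 7.03 and 6.93, 4.78 and 4.56, and 5.44 and 5.32. All libraries at 0 hr lay above all at 8 hr, and these above all at 4 hr. The level fell 4.90-fold at 4 hr (log2 -2.29, SE 0.0932, adjusted p = 6.85e-09), the largest change of the members at that time, and was 3.07-fold lower than at 0 hr at 8 hr (log2 -1.62, adjusted p = 1.42e-07). Between 4 and 8 hr it rose by 0.67 on the log2 scale (95% interval 0.47 to 0.88, adjusted p = 0.000501), and this call was kept in all 24 fits run.

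Pla2g7 encodes the secreted hydrolase of platelet-activating factor, also called lipoprotein-associated phospholipase A2 (chr17:43568098-43612201, plus strand). Log2 CPM values were 10.06 and 10.08 in WT at 0 hr, 10.67 and 10.11 at 4 hr, then 10.93 and 10.96 at 8 hr, and in S513A 10.49 and 10.58, 10.53 and 10.78, and 10.68 and 10.93. The libraries at 0 and 4 hr overlapped, and every library at 8 hr lay above every library at 0 hr. Pla2g7 rose 1.49-fold by 8 hr (log2 0.57, SE 0.126, adjusted p = 0.00333), a call that was lost with quantile normalization (0.24, adjusted p = 0.0854). At 4 hr the difference was 0.22 (adjusted p = 0.158), -0.26 with quantile normalization, and 0.36 (adjusted p = 0.00957) without the library of WT at 4 hr, replicate 2. An antisense gene, 1700071M16Rik, shares 319 exon bases with Pla2g7 and held 96 to 351 reads per library beside the 12002 to 20910 of Pla2g7; the reads were counted without strand.

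Alox5 encodes 5-lipoxygenase, the enzyme that starts leukotriene synthesis (chr6:116410077-116461178, minus strand). The WT libraries had a log2 CPM of 4.07 and 3.82 at 0 hr, 2.46 and 2.63 at 4 hr, then 2.29 and 1.49 at 8 hr, and those of S513A 3.13 and 3.78, 1.92 and 1.78, and 1.30 and 1.28. Every library at 0 hr lay above every LPS library, whereas 4 and 8 hr overlapped, since the higher WT library at 8 hr lay among those of 4 hr. Alox5 fell 2.83-fold at 4 hr (log2 -1.50, SE 0.197, adjusted p = 7.28e-05) and 4.31-fold at 8 hr (log2 -2.11, SE 0.197, adjusted p = 6.70e-06), from 99 to 241 reads per library at 0 hr to 22 to 51 reads at 8 hr. The further fall from 4 to 8 hr was 0.61 on the log2 scale with an adjusted p of 0.0442, and it missed the threshold in 14 of the other 23 fits, with adjusted p up to 0.158 without the library of WT at 8 hr, replicate 2.

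Alox5ap, which holds arachidonic acid for 5-lipoxygenase at the nuclear membrane (chr5:149264767-149288153, plus strand), fell less. Its log2 CPM was 8.59 and 8.52 in WT at 0 hr, 8.25 and 7.75 at 4 hr, then 8.13 and 8.13 at 8 hr, and in S513A 8.90 and 8.68, 8.17 and 8.30, and 7.49 and 7.91. Every LPS library lay below every 0 hr library. The fall was 1.47-fold at 4 hr (log2 -0.55, SE 0.125, adjusted p = 0.00307, and -0.96 with quantile normalization) and 1.69-fold at 8 hr (log2 -0.75, adjusted p = 0.000518). Gm19719, an antisense gene with 189 exon bases in common, held at most 15 reads in any library beside 2083 to 5528 of Alox5ap.

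Alox15 encodes 12/15-lipoxygenase, which makes hydroperoxides of arachidonic and linoleic acid and is a known product of resident peritoneal macrophages and eosinophils (chr11:70344152-70352031, minus strand). It was a gene of few reads, 8 to 55 per library. Its log2 CPM was 1.95 and 1.49 in WT at 0 hr, 1.38 and 1.05 at 4 hr, then 0.25 and 0.74 at 8 hr, and in S513A 0.62 and 1.21, 0.70 and 0.75, and 0.59 and -0.12. The time points overlapped, and S513A at 0 hr lay below WT at 0 hr. Alox15 was 1.93-fold lower by 8 hr (log2 -0.95, SE 0.248, adjusted p = 0.00899, and -0.62 with 1 CPM added before the log), and at 4 hr the difference was -0.35 (95% interval -0.90 to 0.20, adjusted p = 0.26). The summed eosinophil markers given above, mostly Siglecf, were lower at each later time, while Ccr3 was not. The summed markers of resident large peritoneal macrophages were 90.5 to 161 CPM at 0 hr, 541 to 928 at 4 hr and 250 to 339 at 8 hr. That sum was led by Serpinb2, which rose. At 8 hr 3 of the 6 markers had risen (Serpinb2 by 1.51, Timd4 by 1.45 and Prg4 by 0.93 on the log2 scale) and Gata6 had fallen (-1.57, adjusted p = 0.00462), with Icam2 at -0.04 and Garnl3 at -0.68 not called. The part of these cells in the result was not tested.

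**Figure D3:**
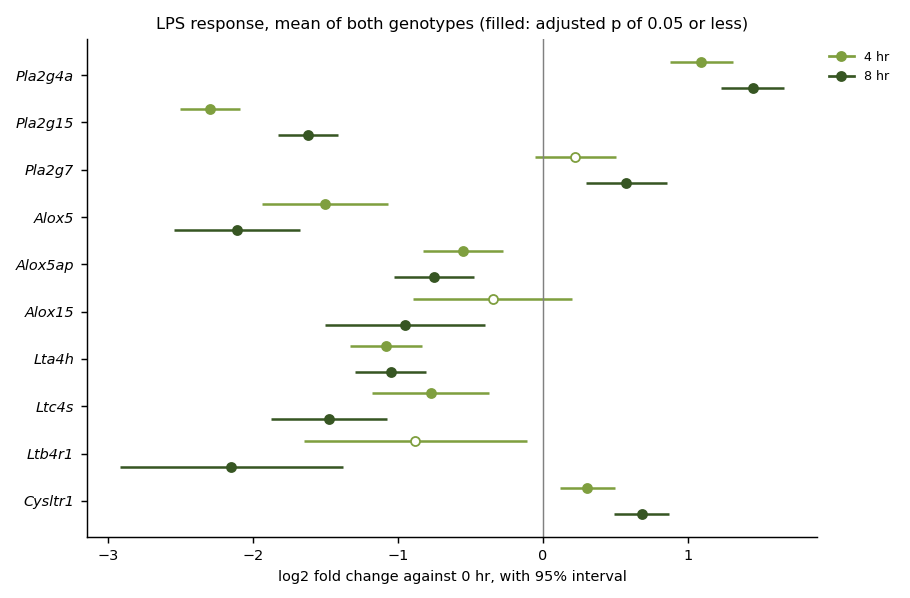
log2 fold change of the 10 members at 4 hr (light) and 8 hr (dark) of LPS against 0 hr, mean of both genotypes, with 95% intervals; filled points passed an adjusted p of 0.05. At 8 hr every point is filled, from -2.15 for Ltb4r1 to 1.44 for Pla2g4a.

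The enzymes that split the pathway into its arms both fell. Lta4h, the hydrolase that forms leukotriene B4 (chr10:93453411-93484875, plus strand), had a log2 CPM of 6.62 and 6.62 in WT at 0 hr, 5.86 and 5.29 at 4 hr, then 5.80 and 5.76 at 8 hr, and in S513A 6.81 and 6.74, 5.70 and 5.60, and 5.43 and 5.59. All LPS libraries lay below all 0 hr libraries, and 4 and 8 hr overlapped. The fall was 2.12-fold at 4 hr (log2 -1.08, SE 0.112, adjusted p = 1.13e-05) and 2.07-fold at 8 hr (log2 -1.05, adjusted p = 1.95e-05). From 4 to 8 hr Lta4h differed by 0.03 (95% interval -0.22 to 0.28).

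Ltc4s, the synthase of the cysteinyl leukotriene arm (chr11:50236461-50238616, minus strand), had a log2 CPM of 2.54 and 2.46 in WT at 0 hr, 1.80 and 1.23 at 4 hr, then 1.38 and 1.34 at 8 hr, and in S513A 2.41 and 2.46, 1.92 and 1.83, and 0.32 and 0.92. The 0 hr libraries of both genotypes lay close together and above all LPS libraries. Ltc4s fell 1.71-fold at 4 hr (log2 -0.77, SE 0.182, adjusted p = 0.00399) and 2.78-fold at 8 hr (log2 -1.48, adjusted p = 6.09e-05). The call of the fall of 0.70 from 4 to 8 hr (adjusted p = 0.0168) was lost without WT at 8 hr, replicate 2 and without S513A at 8 hr, replicate 1. With a library left out the value ran from -0.85 to -0.55. The call was also lost in 1 of the 10 fits with other processing (adjusted p = 0.0572). Its reads ran from 14 to 83 per library, and the antisense gene Gm26542, not analysed here, shares 268 exon bases with it. Eosinophils and mast cells also hold this enzyme. The summed eosinophil markers, mostly Siglecf, were lower at each later time, while Ccr3 was not. The mast cell markers stayed between 1.76 and 3.84 CPM, and the part of either cell type in the result was not tested.

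The receptors moved apart. Ltb4r1, the high-affinity receptor of leukotriene B4 (chr14:55765962-55768494, plus strand), had a log2 CPM of 2.15 and 1.23 in WT at 0 hr, 0.62 and 0.77 at 4 hr, then -0.31 and -1.58 at 8 hr, and in S513A 1.22 and 0.78, 0.05 and 0.42, and -0.29 and -1.04. Each time point lay wholly below the one before it, though 0 and 4 hr nearly met (0.78 against 0.77). Ltb4r1 fell 4.43-fold at 8 hr (log2 -2.15, SE 0.347, adjusted p = 0.000444), from 20 to 63 reads per library at 0 hr to 3 to 9 reads at 8 hr. Its lowest library held 3 reads, and the fold at 8 hr has a wide interval (log2 -2.92 to -1.38) and was -1.16 with 1 CPM added before the log. At 4 hr the difference of -0.88 had an adjusted p of 0.0507, and it passed in 12 of the 23 fits that held the gene. The fall from 4 to 8 hr was -1.27 on the log2 scale (adjusted p = 0.0214), and -0.58 with 1 CPM added. Its call was lost without WT at 8 hr, replicate 2, without S513A at 4 hr, replicate 2 or without S513A at 8 hr, replicate 2. With a library left out the value ran from -1.59 to -0.95. The call was also lost in 1 of the 10 fits with other processing (adjusted p = 0.0574).

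Cysltr1, a receptor of the cysteinyl leukotrienes (chrX:106574346-106603679, minus strand), rose by small steps. Its log2 CPM was 3.91 and 3.81 in WT at 0 hr, 3.97 and 4.01 at 4 hr, then 4.37 and 4.57 at 8 hr, and in S513A 3.79 and 3.69, 4.24 and 4.20, and 4.54 and 4.43. The 3 time points did not overlap. Cysltr1 rose 1.24-fold at 4 hr (log2 0.31, SE 0.0858, adjusted p = 0.0108) and 1.6-fold at 8 hr (log2 0.68, adjusted p = 7.27e-05), and the step from 4 to 8 hr was 0.37 (adjusted p = 0.00919). These calls of the mean of both genotypes were kept in all 24 fits run. Within the genotypes, the difference at 4 hr was 0.13 in WT (limma, adjusted p = 0.434) and 0.48 in S513A (adjusted p = 0.00835). The interaction at 4 hr was 0.35 (95% interval -0.03 to 0.73) and did not pass.

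Between 4 and 8 hr, 3 members rose further or again (Pla2g15, Pla2g4a and Cysltr1) and 3 fell further (Alox5, Ltc4s and Ltb4r1), where 12.8% of all genes rose and 12.8% fell. The count of 6 became 2 without WT at 8 hr, replicate 2, and 3 without S513A at 8 hr, replicate 2. The rise of Pla2g4a by 0.35 (adjusted p = 0.0229) was lost without either of these (0.0947 and 0.0734) or without S513A at 4 hr, replicate 1 (0.077).

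Within each genotype the picture was the same in direction for every call, but not every call passed in both genotypes. In WT, 1 member rose and 5 fell at 4 hr, where 41.3% of all genes were called, and 3 rose and 6 fell at 8 hr, where 34.3% were called. In S513A, 2 rose and 4 fell at 4 hr (43.2% of all genes called) and 2 rose and 6 fell at 8 hr (39.9% of all genes called). Pla2g7 rose by 0.88 in WT at 8 hr (adjusted p = 0.00317, and 0.47 with quantile normalization) and differed by 0.27 in S513A (adjusted p = 0.254), and Alox5ap fell by 1.09 in S513A (adjusted p = 0.000686) and differed by -0.42 in WT (adjusted p = 0.0872). The tests of these differences themselves did not pass: the interaction at 8 hr was -0.61 for Pla2g7 (95% interval -1.17 to -0.05, adjusted p = 0.229) and -0.66 for Alox5ap (95% interval -1.21 to -0.11, adjusted p = 0.206). At 8 hr Alox15 fell by 1.23 in WT (limma, adjusted p = 0.0201) and differed by -0.68 in S513A (adjusted p = 0.15). At 4 hr Ltc4s fell by 0.99 in WT (adjusted p = 0.0105) and differed by -0.56 in S513A (adjusted p = 0.104). Cysltr1 at 4 hr passed in S513A alone, as given above. For these members too the interactions did not pass.

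The comparison for which the mice were made is S513A against WT. None of the 10 members passed the test at 0, 4 or 8 hr or over the mean of the time points (limma, 0 of 10 each), where 0.0337%, 0.0168%, 0.0337% and 0.0673% of all genes did. At an unadjusted p under 0.05 there were 2, 1, 2 and 2 of the 10 members, beside 7.98%, 7.01%, 12.5% and 6.71% of all genes, and with voom weights 0 members passed in each comparison. Nor did a member, or any gene, pass in the genotype by LPS interactions at 4 hr (0% of 11885 genes) and 8 hr (0%), where 0 and 2 of the 10 members had an unadjusted p under 0.05, beside 1.21% and 20.2% of all genes, and 0 members passed with voom weights. Without the library of S513A at 8 hr, replicate 2, 651 genes passed the interaction at 8 hr, 625 of them lower, and 0 members did.

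At 0, 4 and 8 hr, the libraries of 57.5%, 28.2% and 53.6% of all genes did not overlap between the genotypes. Alox5 and Ltc4s were among these genes at each time point, and the libraries of Alox5 differed in the same direction each time. Its 2 S513A libraries lay below its 2 WT libraries at 0, 4 and 8 hr, by 0.49, 0.70 and 0.60 on the log2 scale, with a mean difference of -0.60 (95% interval -0.95 to -0.24, adjusted p = 0.425). Alox15 differed by -0.81 at 0 hr, -0.49 at 4 hr and -0.26 at 8 hr, with a mean of -0.52 (95% interval -0.96 to -0.07, adjusted p = 0.687) and overlapping libraries at 8 hr.

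At 0 hr the libraries of 9 of the 10 members did not overlap between the genotypes, but neither did those of 57.5% of all genes, and 0.0337% of genes were called. Pla2g7 was 1.38-fold higher in S513A at 0 hr (log2 0.47, 95% interval 0.08 to 0.86, adjusted p = 0.586), and it passed where the 4 libraries at 0 hr were fitted alone (adjusted p = 0.0431), a fit in which 693 genes were called in place of 4.

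Ltc4s stood higher in both S513A libraries than in both WT libraries at 4 hr (log2 0.36, 95% interval -0.21 to 0.93) and lower at 8 hr (log2 -0.74, 95% interval -1.31 to -0.17). The difference between these differences was -1.10 (95% interval -1.91 to -0.29, adjusted p = 0.258), and no gene of the 11885 passed that test (0%), in which 2 of the 10 members had an unadjusted p under 0.05, beside 18.9% of all genes, and 0 members passed with voom weights. Without the library of WT at 4 hr, replicate 1, 4 members passed it: Ltc4s (-1.38, adjusted p = 0.0374), Alox5ap (-0.91, adjusted p = 0.0325), Lta4h (-0.63, adjusted p = 0.0319) and Pla2g7 (-0.69, adjusted p = 0.0403). In that fit 2473 genes of all passed, and without replicate 2 in its place 0 did. The comparison rests on the WT pair at 4 hr, which differed most of all pairs.

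**Figure D4:**
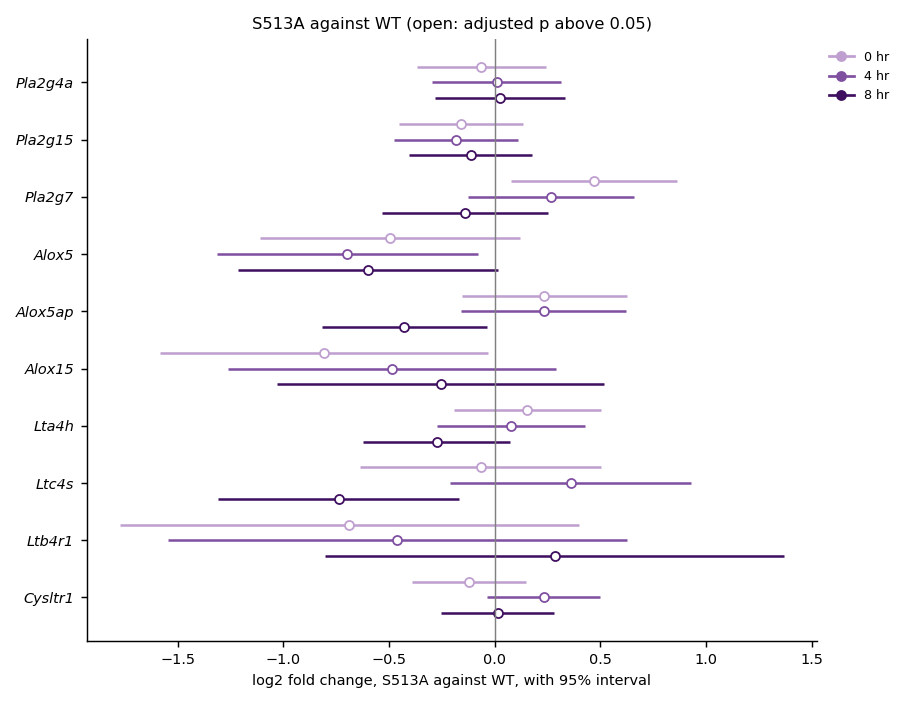
log2 fold change of S513A against WT at 0, 4 and 8 hr (light to dark) for each member, with 95% intervals; all points are open because no adjusted p reached 0.05. Alox5 lies to the left at each time point (-0.49, -0.70 and -0.60), Pla2g4a lies close to 0, and Ltc4s changes side between 4 and 8 hr (0.36 and -0.74).

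The surrounding pathway was read from a list of other lipid mediator genes, of which 47 were tested. At 4 hr 22 of them rose, 11 fell and 14 did not pass, and at 8 hr 23 rose, 12 fell and 12 did not pass, with a median log2 fold change of 0.22 and 0.27. Over all genes 29.1% rose and 26.7% fell at 4 hr and 24.5% rose and 21.6% fell at 8 hr, with medians of 0.02 and 0.00. In 8 hr against 4 hr 9 rose and 9 fell, beside 12.8% of all genes each way, and 0 of 47 passed in each comparison of the genotypes (limma, with 3, 4, 9 and 3 at an unadjusted p under 0.05 at 0, 4 and 8 hr and over their mean, beside the shares of all genes given above).

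Of the 6 receptors tested other than those listed, 5 rose at 4 hr and 5 at 8 hr, with 0 that fell. Fpr1, the receptor of formyl peptides, rose by 3.49 on the log2 scale at 4 hr (SE 0.181, adjusted p = 4.84e-08) and 3.20 at 8 hr. Fpr2, which also binds lipoxin, rose by 2.51 and 3.19, and Gpr18, a receptor linked to resolvins, by 2.57 and 2.08. The one that did not pass, named after its values were seen, was Cysltr2, the other cysteinyl leukotriene receptor, with differences of 0.23 and -0.07.

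Among the partners of leukotriene synthesis, 4 of 8 rose and 1 fell at 4 hr, and 4 rose and 3 fell at 8 hr. Mapkapk2, a kinase that phosphorylates 5-lipoxygenase, rose by 2.68 at 4 hr (SE 0.0766, adjusted p = 5.25e-10) and 1.93 at 8 hr. Mgst3, a microsomal glutathione transferase that can form leukotriene C4, fell by 1.58 at 8 hr (SE 0.21, adjusted p = 0.000108), and its difference at 4 hr was -0.53 (adjusted p = 0.0503).

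Of the 7 genes of leukotriene breakdown, 3 rose and 3 fell at 4 hr, and 4 rose and 2 fell at 8 hr. Dpep3, of the dipeptidase family that trims cysteinyl leukotrienes, rose by 2.65 at 4 hr and by 1.09 at 8 hr (adjusted p = 0.0476), the latter a call lost in 13 of the other 22 fits, with adjusted p up to 0.172 without a library and a value of 0.66 without S513A at 8 hr, replicate 1. Cyp4f18, a hydroxylase of leukotriene B4, fell by 0.74 and 1.72 (-1.07 at 8 hr with 1 CPM added). Its relative Cyp4f16 fell by 0.90 and 0.43, and the call at 8 hr was lost without WT at 8 hr, replicate 2.

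Of the 9 genes that handle arachidonic acid, 4 rose and 2 fell at 4 hr, and 4 rose and 3 fell at 8 hr. Acsl1, an acyl-CoA synthetase, rose by 2.36 at 4 hr and 2.76 at 8 hr (adjusted p = 4.43e-09), from 1173 to 1745 reads per library at 0 hr to 7553 to 9125 at 8 hr. The fatty acid binding proteins went the other way: Fabp4 fell by 1.78 and 2.51 (adjusted p = 2.77e-06 at 8 hr) and Fabp5 by 0.80 and 1.70. Of the 7 genes of platelet-activating factor, 4 rose at each time point, and 3 fell at 4 hr and 2 at 8 hr. Lpcat1, an acyltransferase of that route, fell by 1.17 at 4 hr and by 0.34 at 8 hr (adjusted p = 0.0258, a call lost in 5 of the 12 fits that left out a library, with adjusted p up to 0.103).

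Alox12 and Pla2g2e were near the limit of the depth. Alox12, the platelet-type lipoxygenase, rose by 3.02 at 8 hr (adjusted p = 0.00143), but from 0 to 6 reads per library at 0 hr to 8 to 14 reads. Pla2g2e, a secreted phospholipase A2, fell by 2.52 at 4 hr (SE 0.642, adjusted p = 0.0063), from 10 to 33 reads per library to 0 to 9 reads, and differed by -1.22 at 8 hr (adjusted p = 0.149). Folds of genes with so few reads depend on the 0.5 reads added to each count: with 1 CPM added, that of Alox12 was 0.81 and that of Pla2g2e -0.91. Of the other phospholipases A2, 1 of 6 rose and 1 fell at 4 hr, and 1 rose and 1 fell at 8 hr. Of the 3 genes of the epoxyeicosanoid route tested, 1 fell at each time point and 0 rose.

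**Figure D5:**
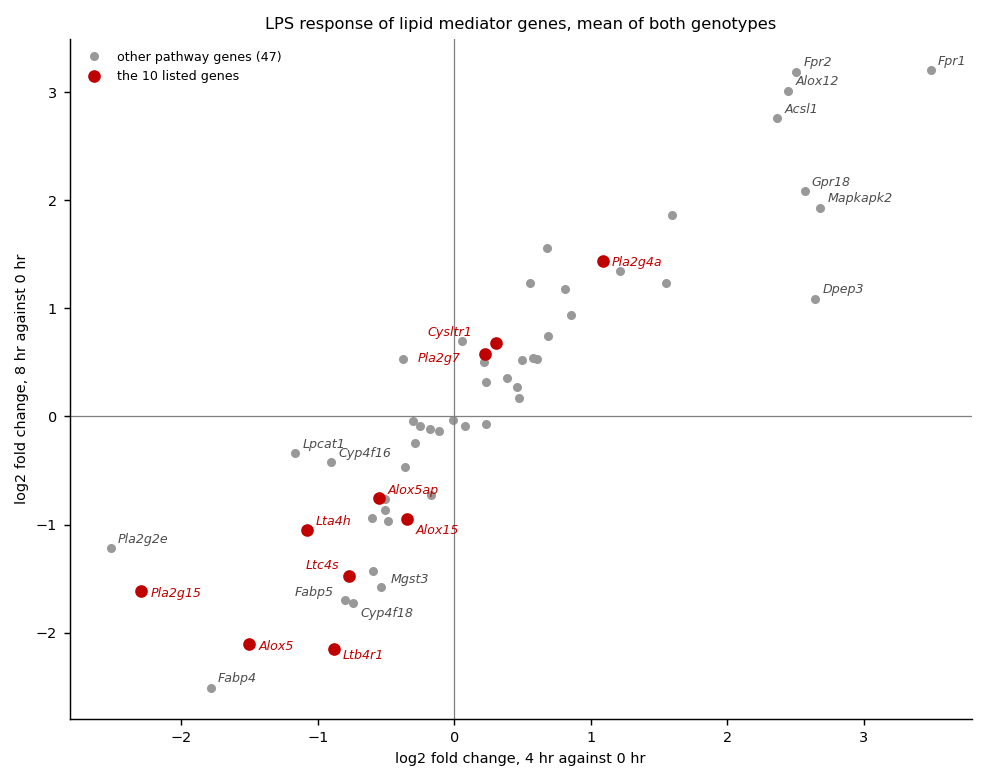
log2 fold change at 8 hr (vertical) against that at 4 hr (horizontal) of LPS, both against the same 0 hr libraries, for the 10 members (red) and 47 other pathway genes (grey; the largest changes named). The members reach from -2.29 to 1.44, with 7 in the lower left, and Fpr1, Fpr2, Acsl1 and Mapkapk2 stand at the upper right.

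The widest ranges of group means were those of Alox5 (2.66 log2) and Ltb4r1 (2.63), and for these the tested genes most alike in pattern were looked up by Pearson correlation of log2 CPM over the 12 libraries, which share their time points and are given as a description. The genes most like Alox5 were Ptgs1, which encodes cyclooxygenase-1 (r = 0.98), Hal, histidine ammonia lyase (r = 0.97), and Nxpe5 (r = 0.96). Ptgs1 averaged a log2 CPM of 4.85 before LPS, 3.05 after 4 hr and 2.66 after 8 hr. The genes most like Ltb4r1 were Mfge8, a bridge between dying cells and phagocytes (r = 0.93), Fam78b (r = 0.93) and Tenm4 (r = 0.92), at the low depth of Ltb4r1 given above.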

How the data were processed

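The 10 members were taken by symbol from the expression table, and all passed the filter. The authors mapped reads to mm10 with HISAT2 (paired end, unstranded), counted them with featureCounts 1.6.3 and deposited log2 CPM values; the program behind these, the annotation and the filter on listed genes are not given in the sources used here. The deposited log2 values take each count with 0.5 added, over an effective library size, and whole reads were recovered from them (largest departure 0.00156 read, tolerance 0.01). The fits used the deposited log values, with voom weights from the recovered reads as an alternative, and a count model of those reads was not run.

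The 11885 of 12850 genes that reached 1 CPM in 2 or more libraries were fitted with limma 3.58.1 (R 4.3.3), a mean for each of the 6 groups, a trended prior and Benjamini-Hochberg adjustment over all genes tested, at an adjusted p of 0.05. Intervals are 95%. Fold changes are on the log2 scale of CPM with 0.5 reads added, which understates changes of genes with few reads. The fit was tested on simulated data. Alternatives were no filter, a filter on mean CPM (5 or more), 1 CPM added before the log, median-ratio scaling, quantile normalization, replicate blocks, other priors, voom weights, a fit of only the libraries compared, leaving out each library, and transcript length. The test of the S513A effect at 8 hr against that at 4 hr was added after the values were seen. The members and lists were chosen with earlier results of these data known. Members are all named; other pathway genes are named if they passed at 4 or 8 hr, at most the 4 largest changes in each direction and time, and for the 2 members of widest range the 3 genes most alike are named. Of 80 pathway symbols, 50 were in the table. Gene positions and lengths are from GENCODE on GRCm38. Marker sums for B cells, T and NK cells, dendritic cells and mesothelial cells stayed under 9 CPM in every library, and no erythroid marker was in the table.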

Additional observations from a re-analysis of the deposited data

How the results depend on the processing

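Across the 2660 refitted log2 fold changes of named genes, 2552 kept direction and side of the threshold, 60 lost a call, 40 gained one and 8 changed sign. With quantile normalization, the difference of Pla2g7 at 4 hr turned to -0.26 in the mean, -0.20 in WT and -0.32 in S513A. With a library left out, Lta4h from 4 to 8 hr ran from -0.11 to 0.17, Pla2g7 in S513A at 4 hr from -0.0025 to 0.24, Alox15 in S513A at 4 hr from -0.48 to 0.11, and Alox15 in S513A against WT at 8 hr from -0.61 to 0.10. None of these sign changes was a call. The number of members called was 6 from 4 to 8 hr, and 2 to 6 with a library left out. For S513A against WT at 0 hr it was 0, and 1 with only the libraries compared. For the S513A effect at 8 hr against 4 hr it was 0, and 0 to 4 with a library left out. The numbers of other comparisons stayed within 1.5 times. Of 30 levels per kb, 15 moved by more than 1 SD with the longest transcript as the length. The causes were not tested. The mean filter of 5 CPM removed members of few reads. The libraries share only a replicate number: correlations of replicate differences ran from -0.75 to 0.76. With the replicate block, Ltb4r1 at 4 hr passed (adjusted p = 0.0366) and Alox5 from 4 to 8 hr did not (0.061), Dpep3 at 8 hr did not (0.0583). With a block of genotype and number, Mgst3 at 4 hr passed too (0.0494). No other call given changed under either block. Depth limits Ltb4r1, Alox15, Ltc4s and Alox12, where few reads make wide intervals.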
